A study of Homo sapiens with 16 samples.

Results

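The regions described here lie in ERVL and ERVL-MaLR long terminal repeat (LTR) elements of the human genome. They are the rows of the deposited H3K27ac table whose detailed annotation names the ERVL or ERVL-MaLR families, and they make up 9985 of the 151654 regions in the table. Of these members, 6822 were annotated as ERVL-MaLR, 3098 as ERVL and 65 as an uncertain ERVL assignment, under 198 repeat names. The rule used the annotation alone and no measured value.

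H3K27ac, the acetyl mark on histone H3 that enhancers and promoters carry when active, was measured by ChIP-seq in THP-1 cells, a human monocytic leukemia cell line, to ask how loss of USP18 and IFN change regulatory activity. USP18 removes the ubiquitin-like modifier ISG15 from proteins and restrains signaling by the type I interferon receptor. There were 4 groups of 2 libraries: WT cells, which carried Cas9 but no USP18 deletion, and USP18-/- cells, deleted by CRISPR, each either untreated or given IFNα at 1000 U/ml for 6 h. The USP18-/- cells were grown from sorted single cells, so the genotype cannot be told apart from other differences between cell clones. The libraries of a group are replicates of 1 cell line, and p-values measure only the spread between them. The authors counted raw tags in a 1000 bp window at each merged ATAC-seq peak. A region here is 1 such window, and its level is given in CPM, the count scaled to the library's total after edgeR's TMM adjustment.

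ERVL elements descend from retroviruses that entered the germ line of mammals long ago, and MaLRs are their relatives that moved without a reverse transcriptase of their own. An LTR carries the promoter and enhancer letters of the former virus, and most copies survive as a lone LTR after the inner part was lost by recombination. MLT copies are the oldest MaLRs, MST copies are younger and THE1 copies, found only in primates, are the youngest. MLT2 LTRs belong to the HERV-L group, and names that end in -int mark the inner parts between LTRs. LTRs of several families are known to act as enhancers in immune cells.

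By name, the members were 4318 MLT1, 1157 MST, 761 THE1 and 257 MLT2 LTRs, 2401 other ERVL LTRs such as LTR16 and LTR33, and 1091 internal parts. The names with most members were MSTA with 643, MLT1J with 435 and THE1D with 340. Intergenic sequence held 6435 members (64.4%) and introns held the other 3550 (35.6%). Within 3000 bp of a transcription start site (TSS) lay 2.40% of the members, against 20.7% of all regions. The median distance to the nearest TSS was 41026 bp for members and 20667 bp for all regions. Windows that overlapped another window made up 18.9% of the members and 31.8% of all regions, so neighboring regions can share tags. The nearest gene given with each member below is the one in the authors' annotation and was not shown to be its target.

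The sequences that follow show what the letters of an interferon response look like inside these repeats. The interferon-stimulated response element (ISRE) is the site bound by IRF9 and other IRF factors once interferon has signaled, and its core was searched as GAAANNGAAA on both strands. For 5 of the 6 classes, the member with the smallest adjusted p among those called higher with IFN in USP18-/- cells and holding such a core is printed. The letters are the central 200 bases of each region, on the plus strand of hg38, with the ISRE core in capitals.
MSTA, 30.4 kb from LOC101927237, chr4:67452279-67452478: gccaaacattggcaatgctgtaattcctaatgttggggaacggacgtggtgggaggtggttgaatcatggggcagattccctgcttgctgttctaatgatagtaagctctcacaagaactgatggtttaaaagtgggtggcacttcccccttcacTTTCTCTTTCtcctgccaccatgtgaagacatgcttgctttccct
MLT1H, 5.07 kb from CCR1, chr3:46213315-46213514: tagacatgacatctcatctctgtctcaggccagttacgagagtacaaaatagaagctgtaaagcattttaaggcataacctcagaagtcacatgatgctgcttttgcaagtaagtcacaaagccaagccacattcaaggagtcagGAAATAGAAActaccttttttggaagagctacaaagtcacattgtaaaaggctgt
MLT2F, 199 kb from EFHB, chr3:19734920-19735119: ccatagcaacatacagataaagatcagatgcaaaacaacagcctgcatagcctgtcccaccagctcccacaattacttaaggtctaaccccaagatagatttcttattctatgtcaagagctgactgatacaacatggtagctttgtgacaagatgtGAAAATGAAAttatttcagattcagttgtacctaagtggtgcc
LTR67B, 124 kb from CHSY1, chr15:101127583-101127782: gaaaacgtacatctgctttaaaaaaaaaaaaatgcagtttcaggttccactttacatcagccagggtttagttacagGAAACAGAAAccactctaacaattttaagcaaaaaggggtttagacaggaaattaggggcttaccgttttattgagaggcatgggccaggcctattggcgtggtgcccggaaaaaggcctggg
MLT1J-int, 399 kb from LOC102546299, chr5:164868820-164869019: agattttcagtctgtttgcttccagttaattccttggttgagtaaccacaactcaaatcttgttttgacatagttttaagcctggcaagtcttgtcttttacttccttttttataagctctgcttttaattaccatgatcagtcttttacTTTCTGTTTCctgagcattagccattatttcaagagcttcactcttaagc

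In THE1 elements the most frequent of the searched sites was that of AP-1, the dimer of FOS and JUN proteins, searched as TGANTCA. The THE1A copy called higher with IFN in USP18-/- cells at the smallest adjusted p among holders of the site is shown with 25 bases on either side, the site in capitals.
THE1A near MAD1L1, chr7:1962003-1962059, plus strand: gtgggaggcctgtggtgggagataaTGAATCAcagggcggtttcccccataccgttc
This stretch holds TGAATCA, with an A in the middle, while the classic AP-1 heptamer has a C or G there. Over all members by name, a C or G in the middle was found in 136 of 340 THE1D, 105 of 242 THE1C, 11 of 92 THE1B and 2 of 87 THE1A copies. An A or T in the middle was found in 24 THE1D, 65 THE1C, 50 THE1B and 38 THE1A copies.

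Another set shows the composite of a C/EBP site and an ATF site, TTGCATCA, the kind of site known to bind C/EBP proteins paired with ATF4. These 4 members were called higher in untreated USP18-/- cells at the smallest adjusted p among holders of the site, 1 per repeat name, and are shown with 25 bases on either side, the composite in capitals.
MLT1L near SMAP2, chr1:40353241-40353298, minus strand: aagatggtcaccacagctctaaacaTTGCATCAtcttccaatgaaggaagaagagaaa
LTR40b near KCNG1, chr20:51033857-51033914, minus strand: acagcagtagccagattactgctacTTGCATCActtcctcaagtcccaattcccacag
MLT1J2-int near HNRNPKP3, chr11:43010194-43010251, minus strand: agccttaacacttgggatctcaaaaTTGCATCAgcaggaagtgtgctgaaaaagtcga
MLT1K near SIRPA, chr20:1850949-1851006, plus strand: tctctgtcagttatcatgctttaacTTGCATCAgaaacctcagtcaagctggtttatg

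Between 9046141 and 12935453.5 tags per library fell in all regions. The region at the USP18 TSS gave 7.85 and 7.62 CPM in untreated WT cells, 18 and 15.0 with IFN, and 8.20 and 8.47 in untreated and 49.2 and 41.7 CPM in IFN treated USP18-/- cells, which does not test the deletion itself. Of the monocytic markers, the SPI1 promoter stood at 64.6 to 131 CPM, CD33 at 9.08 to 13.1, ITGAM at 8.25 to 12.2, LYZ at 4.60 to 17.6 and CSF1R at 1.55 to 3.27 CPM. Of the T and B cell markers, CD5 stood at 3.73 to 8.44 and PAX5 at 0.495 to 2.12 CPM. No region lay at the promoters of CD3E, CD3D, MS4A1, GATA1, HBB, EPOR, EPCAM, KRT18 and ALB. In bulk chromatin, a change in how many cells carry the mark and a change in its level per cell cannot be told apart.

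Members took 3.21% ± 0.011 (SD, n = 2) of all counts in untreated WT cells and 3.13% ± 0.089 after IFN. In USP18-/- cells the share was 2.70% ± 0.056 untreated and 2.45% ± 0.016 after IFN. The 4 USP18-/- libraries all lay below the 4 WT libraries. With 2 libraries against 2, an exact permutation test cannot give a p below 0.333, so these shares are a description. The THE1 share did not follow this pattern, at 0.181% and 0.177% of counts in WT cells without and with IFN and 0.184% and 0.176% in USP18-/- cells. The MLT1 share was 1.48%, 1.45%, 1.25% and 1.13% in the same order of groups. The median member gave 1.11 CPM in untreated WT cells, against 1.55 CPM for the median of all regions. Summed over members, CPM was 30423.6 and 30137.6 in untreated WT and 28020.1 and 27808.6 in IFN treated USP18-/- libraries. Summed over all regions it was 950713 and 937337, then 1.15e+06 and 1.13e+06. The sum over all regions follows from each library's TMM adjustment, so its rise is not a separate measurement. The fall of the members' sum rests on the same scaling.

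**Figure D1:**
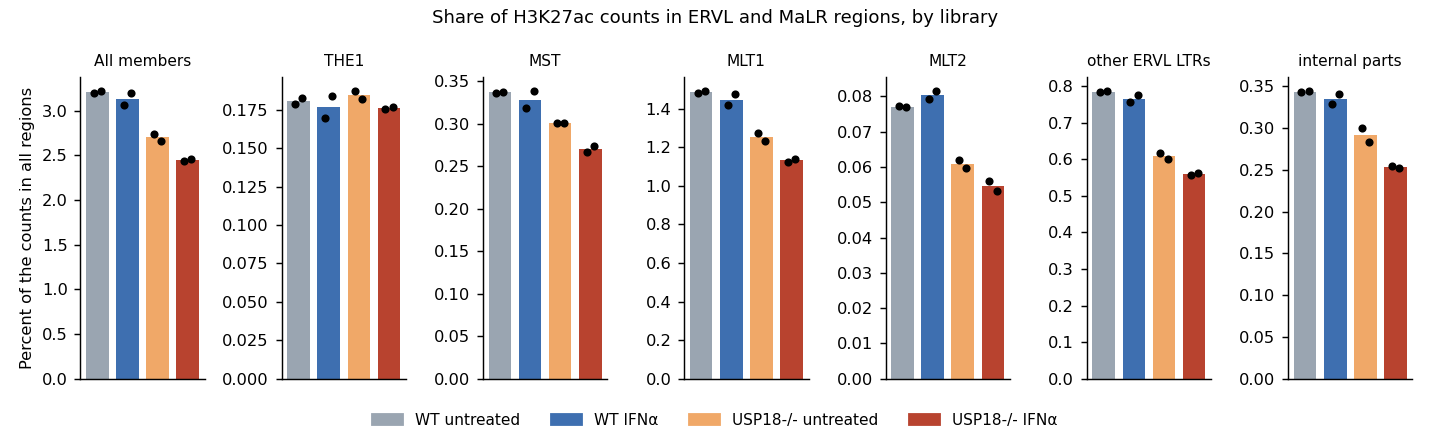
Percent of all H3K27ac counts that fell in ERVL and MaLR regions, and in each class of repeat. Bars are means of 2 libraries, points are single libraries, and each panel has its own axis from 0. Members together went from 3.21% in untreated WT cells to 2.45% in IFN treated USP18-/- cells. A share of counts is relative and does not by itself give the members' own level. THE1 group means lay between 0.176% and 0.184%, and single THE1 libraries between 0.169% and 0.187%.

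To compare groups, every region that reached 10 counts in 2 or more of the 8 libraries was tested with edgeR's quasi-likelihood test over the whole table, with Benjamini-Hochberg adjustment. A region was called when its log2 fold change passed 1 in size with an adjusted p under 0.05. Of the members, 7520 passed the filter (75.3%) and 2465 did not, and of all regions 123276 passed (81.3%). The standard errors (SE) given with log2 fold changes were derived from the test statistic.

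In untreated cells, loss of USP18 went with lower H3K27ac at more members than it went with higher signal. Of 7520 tested members, 359 were higher (4.77%) and 911 were lower (12.1%) in USP18-/- cells, beside 5.66% and 10.8% of all tested regions. The median log2 fold change was -0.17 for members and -0.02 for all tested regions. Of tested regions over 3000 bp from a TSS that are not members, 5.20% rose and 12.8% fell, the median being -0.14, and of the members that far away 4.76% and 12%. The balance of calls in members was thus near that of other distal regions, and the difference between the 2 was not tested.

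The calls were then counted by class of repeat, to be read beside 5.66% higher and 10.8% lower of all tested regions. Of 587 tested THE1 copies, 48 were higher and 37 lower and the median was 0.03, although under scaling by the sum of counts the balance turned to 33 higher and 49 lower and the median to -0.12. MST copies gave 45 higher and 77 lower of 870 with a median of -0.08. MLT1 copies gave 148 and 409 of 3278, and internal parts 42 and 109 of 841. When only distal regions were scaled and tested, MST turned to 68 higher and 63 lower and a median of 0.08. MLT2 copies gave 14 higher and 29 lower of 190, and their median of -0.33 was the lowest of the classes. The other ERVL LTRs gave 62 higher and 250 lower of 1754, with a median of -0.26. Within THE1, the THE1A copies had the highest median, 0.15, with 15 higher and 7 lower of 79, and under scaling by the sum of counts 12 were higher and 7 lower. In the opposite direction stood MSTB1, with 2 higher and 17 lower of 120, and MLT1F2, with 7 higher and 35 lower of 191. No test compared the classes with each other.

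The members with the largest rises in untreated USP18-/- cells were 4 MLT copies. An MLT2F copy 2.21 kb from SIGLEC8, a sialic acid-binding receptor of eosinophils and mast cells, gave 1.34 and 0.908 CPM in WT cells and 13.0 and 13.3 CPM in USP18-/- cells. The groups were far apart, and the log2 fold change was 3.55 (SE 0.27, edgeR adjusted p = 1.5e-19). An MLT1I copy near LINC01602 rose from 1.96 and 1.45 CPM to 15.7 and 16.6 CPM (log2 fold change 3.24, SE 0.23, edgeR adjusted p = 4.6e-21). An MLT1J2 copy near RIT2, in an intron of LINC00907, and an MLT1J1 copy in intron 3 of PPP1R17 rose by 3.09 and 2.93 on the log2 scale, both from under 1 CPM in WT cells. With IFN, the MLT2F, MLT1I and MLT1J2 copies stood lower in USP18-/- cells than without it, at 7.99 and 5.35, 11.4 and 9.76, and 1.60 and 1.31 CPM, still above the WT libraries. For the MLT2F copy the IFN effect differed between genotypes (log2 difference -1.36, SE 0.47, edgeR adjusted p = 0.040).

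The largest falls included an MLT1E1A copy 23.7 kb from LAMP5, a lysosome-associated membrane protein, which went from 5.27 and 5.72 CPM in untreated WT cells to 0.262 and 0.289 CPM (log2 fold change -4.27, SE 0.43, edgeR adjusted p = 6.3e-14). An MLT1J2 copy near IRX6, a homeobox gene, went from 6.92 and 7.53 CPM to 1.05 and 0.385 CPM (log2 fold change -3.29, SE 0.33, edgeR adjusted p = 5.0e-14). Both stayed at or below 1.05 CPM in all 4 USP18-/- libraries, with or without IFN. An internal part of ERV3-16 near PLA2G4D, a phospholipase A2, fell by 3.55 on the log2 scale. An MLT1N2 copy near PPIAL4G fell by 4.91, but 71.7% of the 100-base stretches of its window occur elsewhere in the genome, so its tags may belong to other copies. Such repetition was rare, and over 10% of the window was repeated in 145 members (1.45%).

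The composite site TTGCATCA was found in the central 200 bases of 56 of the 359 members that were higher in untreated USP18-/- cells (15.6%). It was in 3.71% of all tested members and in 1.87% of the 911 that were lower. Among all tested regions the shares were 7.65% of those higher and 2.01% overall. Of the 42 internal parts that were higher, 13 held it (31.0%), against 8.44% of tested internal parts. The MLT1L copy near SMAP2 had the highest signal in untreated WT cells after the MLT1F1 copy near REXO1L2P, at 98.0 and 111 CPM, and it gave 234 and 243 CPM in untreated USP18-/- cells (log2 fold change 1.19, SE 0.08, edgeR adjusted p = 8.1e-24). The LTR40b copy near KCNG1, a potassium channel subunit, went from 7.44 and 5.54 to 30.9 and 28.9 CPM (log2 fold change 2.21, SE 0.16, edgeR adjusted p = 1.7e-21). The MLT1J2-int part near HNRNPKP3 went from 24.9 and 22.2 to 69.7 and 58.3 CPM, and the MLT1K copy near SIRPA, the receptor for CD47 on myeloid cells, from 4.96 and 5.35 to 20.7 and 19.1 CPM. None of these 4 was called with IFN in WT or USP18-/- cells. These shares and those of the other motifs are descriptions without a test, and a match is not shown to be bound.

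The other motifs searched were those of C/EBP (TTGCNNAA), NF-kB (GGGNNTTTCC) and the myeloid factor PU.1 (GAGGAAGT). C/EBP letters were in 21.8% of the members that were lower in untreated USP18-/- cells, 11.7% of those that were higher and 14.5% of tested members. Over all regions these shares were 26.4% of the lower, 12.7% of the higher and 16.6% of the tested. NF-kB letters were in 3.90% of the members that were higher and 0.878% of those that were lower, beside 2.22% and 0.692% over all regions, where 1.09% of those tested held them. They were in 7.33% of tested THE1 copies and in 1.42% of all tested members, THE1 included, and 6 of the 48 THE1 copies that were higher held them. PU.1 letters were in 8.36% of higher, 6.70% of lower and 8.62% of tested members, and in 7.26%, 6.40% and 6.62% of such regions overall.

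**Figure D2:**
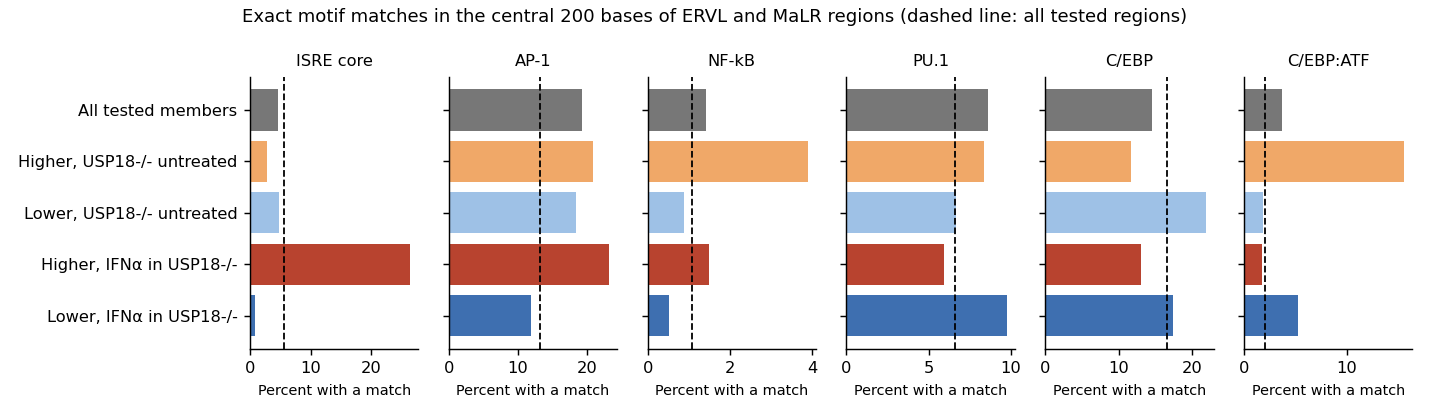
Percent of tested ERVL and MaLR regions with an exact motif match in their central 200 bases, for all tested members and for those called in untreated USP18-/- against WT cells or with IFNα in USP18-/- cells. The dashed line is the share among all tested regions, and each panel has its own axis. The C/EBP:ATF composite was in 15.6% of members and 7.65% of all regions higher in untreated USP18-/- cells. The ISRE core was in 26.4% of members and 29.1% of all regions higher with IFNα in USP18-/- cells.

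With IFN in both genotypes, 569 members were higher (7.57%) and 1156 lower (15.4%) in USP18-/- than in WT cells, beside 11.3% and 13.4% of all tested regions. The median was -0.15 for members and 0.00 for all tested regions. When only distal regions were scaled and tested, the members' median was 0.03 with IFN and -0.02 in untreated cells, so its sign with IFN depended on the scaling. Other distal regions gave 10.5% higher and 15.7% lower. THE1 copies gave 75 higher and 38 lower calls and a median of 0.08, which turned to 50 higher and 66 lower and a median of -0.20 under scaling by the sum of counts. For THE1A, 21 copies were higher and 6 lower and the median was 0.38, and under that scaling 15 were higher and 9 lower. MLT2 copies gave 11 higher and 43 lower, with a median of -0.43. Of 50 tested LTR16A1 copies, 19 were lower and 1 higher, and of 120 MSTB1 copies, 29 were lower and 4 higher.

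These 2 genotype comparisons share no library, but both set USP18-/- cells against WT cells, so a clone difference can enter both. Of the 359 members higher in USP18-/- cells without IFN, 183 were higher under IFN too. This is 51.0% of the first list and 32.2% of the second. Of the 911 lower members, 588 were lower with IFN as well, 64.5% and 50.9% of the lists. Over all tested regions the shared part was 57.5% and 28.9% of the higher lists and 65.4% and 52.7% of the lower lists. For THE1, 31 were in both lists, 64.6% of the 48 and 41.3% of the 75 copies.

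The largest rise with IFN present was at an MLT1B copy in an intron of CCDC91, on chr12:28542671-28543671, with 1.19 and 1.23 CPM in IFN treated WT and 33.3 and 36.2 CPM in IFN treated USP18-/- cells (log2 fold change 4.83, SE 0.22, edgeR adjusted p = 3.4e-33). Untreated libraries gave at most 2.27 CPM there. An inner part of HERVL66 on chromosome 14 went from 2.08 and 0.615 to 18.1 and 15.9 CPM between the IFN treated genotypes. The deepest fall was at an LTR16C copy near F13A1, which encodes the A subunit of coagulation factor XIII. It gave 22.1 and 19.4 CPM in untreated and 17.7 and 16.6 CPM in IFN treated WT cells, against 2.53 and 3.08 and 1.42 and 0.751 CPM in USP18-/- cells (log2 fold change with IFN -3.96, SE 0.25, edgeR adjusted p = 4.4e-25). A THE1B-int part near LOC100506422 fell by 3.65 on the log2 scale, and also fell with IFN within USP18-/- cells, from 3.84 and 3.85 to 1.33 and 1.41 CPM.

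The balance of these calls moved with the scaling of the counts. Under scaling by the sum of counts, the median of all tested regions moved to -0.16 in untreated cells, to -0.27 with IFN, to -0.14 for IFN in USP18-/- cells and to -0.13 for the genotype difference of the IFN effect. The share of called members that were higher was 28.3% in untreated cells and 33.0% with IFN under TMM, 18.1% and 18% under the sum of counts, and 41.2% and 46.7% when only distal regions were scaled and tested. Signal also differed between genotypes over long stretches: the median over stretches of 10 Mb ran from -0.93 to 0.77 in untreated cells. With these medians subtracted, 353 members were higher and 772 lower in untreated cells, and 549 and 1053 with IFN. Only the fold changes were corrected, and the adjusted p remained those of the uncorrected test. The members' median then went from -0.17 to -0.08 in untreated cells and from -0.15 to -0.13 with IFN. The part of these stretches in single members was not tested.

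**Figure D3:**
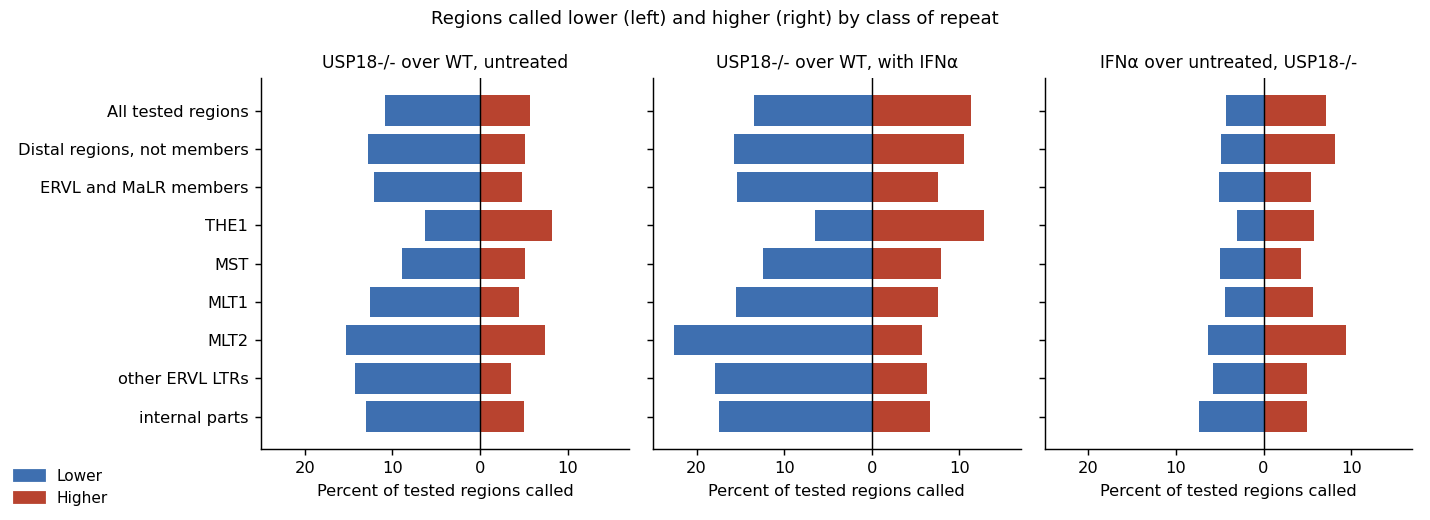
Percent of tested regions called lower (left of 0) and higher (right of 0) for all tested regions, distal regions that are not members, all members and each class. THE1 has more higher than lower calls under the TMM scaling shown, 48 and 37 in untreated cells, which turned to 33 and 49 under scaling by the sum of counts, and MLT2 has 43 lower and 11 higher calls with IFNα.

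IFN in WT cells changed few members. Of 7520 tested, 10 were higher (0.133%) and 4 lower (0.0532%), beside 0.344% and 0.0381% of all tested regions. The largest rise was at an MLT1F2 copy near FHIT, with 0.413 and 0.545 CPM untreated and 2.48 and 2.05 CPM with IFN (log2 fold change 2.20, SE 0.46, edgeR adjusted p = 0.0019). The MLT1H2 copy 8.67 kb from C9orf147, in intron 1 of KIAA1958, was far stronger. It gave 7.95 and 7.26 CPM untreated and 27.1 and 27.4 CPM with IFN in WT cells (log2 fold change 1.84, SE 0.14, edgeR adjusted p = 7.9e-18). In USP18-/- cells it went from 12.8 and 11.1 to 102 and 88.6 CPM, and the IFN effect was larger there by 1.15 on the log2 scale (SE 0.20, edgeR adjusted p = 4.0e-06).

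Rises were also at an MLT1D copy near KCNIP1, an MLT1K copy near FAM8A1 and an LTR16C copy near NOS2, the inducible nitric oxide synthase, at 1.78, 1.26 and 1.23 on the log2 scale. The MLT1K copy gave 1.45 and 3.0 CPM untreated and 5.15 and 5.74 CPM with IFN in WT cells, and 3.05 and 1.92 against 33.9 and 31.9 CPM in USP18-/- cells. The falls were at an MLT1A copy in NEGR1, an MLT1K copy near LOC101927480 and an LTR33 copy near SLC39A10, a zinc transporter, at -1.36, -1.11 and -1.10. Of these 8 regions, the one near C9orf147 kept its call in every alternative run, and the other 7 each lost it when some WT library was left out. Each of the 4 WT libraries ended calls in this way, with adjusted p between 0.055 and 0.74 where the call was lost, and the counts over all members then ran from 5 to 13 higher and from 0 to 4 lower. DESeq2 called 4 members higher and 0 lower, and edgeR had 619 members at an unadjusted p under 0.05. Of the 10 members higher in WT cells, 9 were among the 405 higher in USP18-/- cells (90% and 2.22% of the lists), and these comparisons share no library. Over all tested regions, 402 of the 424 higher in WT cells were among the 8797 higher in USP18-/- cells (94.8% and 4.57%).

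IFN in USP18-/- cells raised 405 members (5.39%) and lowered 379 (5.04%), beside 7.14% and 4.28% of all tested regions. The median log2 fold change was -0.08 for members and -0.01 for all tested regions. Other distal regions gave 8.11% higher and 4.90% lower, and distal members 5.36% and 5.02%. Among other repeats over 3000 bp from a TSS, 10.8% of LINE, 10.0% of ERV1, 8.61% of DNA transposon and 7.79% of SINE regions were higher. Under the sum of counts, 340 members were higher and 560 lower, so that 37.8% of called members were higher in place of 51.7%.

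All tested regions gave 7.14% higher and 4.28% lower. By class, MLT2 gave 18 higher and 12 lower of 190, MLT1 187 and 143 of 3278, and other ERVL LTRs 87 and 101 of 1754. MST gave 37 higher and 43 lower of 870, and internal parts 42 and 62 of 841. Under scaling by the sum of counts the balance turned to 151 higher and 230 lower for MLT1 and to 14 and 17 for MLT2, and with only distal regions scaled MST gave 37 and 36. THE1 gave 34 higher and 18 lower of 587, with a median of 0.04. Under the sum of counts 26 THE1 copies were higher and 23 lower, and the median turned to -0.09. Of names with at least 30 tested members, MLT1L gave 13 higher and 3 lower of 138, MLT1J 25 and 19 of 331, LTR67B 8 and 3 of 59, and LTR16A1 1 and 10 of 50.

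Several of the largest rises were at members with little signal in the other 3 groups. The count filter could be passed through the IFN treated USP18-/- libraries alone, and a ranking by fold favors members with low signal elsewhere. The low signal in the other groups is therefore partly a product of this selection and was not tested. The MLT1H copy near STX4, a syntaxin of vesicle fusion, went from 0.873 and 0.674 to 16.6 and 17.7 CPM (log2 fold change 4.44, SE 0.28, edgeR adjusted p = 2.9e-25). The MLT1J copy 2.84 kb from HTATIP2 and the MLT1F1 copy near OTOR rose by 4.47 and 4.44 from below 0.3 CPM. An LTR33A_ copy near LINC01362 rose by 4.17, from 0.698 and 0.385 to 11.3 and 8.83 CPM. At low counts such folds carry wide errors, and the SE was 0.47 for the HTATIP2 and 0.53 for the OTOR copy.

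A group of 3 members on a stretch of chromosome 3 by TNFSF10, which encodes the death ligand TRAIL, were higher together with IFN in USP18-/- cells. The MLT1A0 copy 23.3 kb from the TNFSF10 start gave 3.0 and 4.90 CPM in untreated and 7.04 and 7.49 CPM in IFN treated WT cells, then 1.57 and 2.98 CPM in untreated and 47.0 and 57.7 CPM in IFN treated USP18-/- cells (log2 fold change in USP18-/- cells 4.53, SE 0.19, edgeR adjusted p = 1.7e-36). The LTR16A1 copy 27.2 kb away went from 0.262 and 1.15 to 4.17 and 4.22 CPM. The THE1D copy on chr3:172577774-172578774, in an intron of LINC02068, went from 0.873 and 1.35 to 18.4 and 19.4 CPM (log2 fold change 4.09, SE 0.25, edgeR adjusted p = 1.6e-25) and had the smallest adjusted p of all THE1 copies. In WT cells none of the 3 was called with IFN. The MLT1A0 copy rose there by 0.86 on the log2 scale (SE 0.23, edgeR adjusted p = 0.039), short of the fold threshold.

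The smallest adjusted p of the other classes stood at members of higher signal. The LTR41B copy 35.2 kb from HPSE, the enzyme heparanase, gave 22.2 and 22 CPM in untreated and 43.4 and 40.0 CPM in IFN treated WT cells, and 12.2 and 12.6 against 135 and 137 CPM in USP18-/- cells (log2 fold change in USP18-/- cells 3.45, SE 0.11, edgeR adjusted p = 3.4e-44). The MLT1A0-int part in an intron of ARIH1 went from 5.06 and 4.81 to 52.9 and 40.9 CPM. The MSTA copy near TRAM1 on chromosome 8 went from 13.2 and 15.1 to 60.8 and 59.1 CPM, and without IFN the USP18-/- cells already exceeded WT cells there (log2 fold change 1.07, SE 0.17, edgeR adjusted p = 9.0e-08). The smallest adjusted p in MLT2 was a fall, at an MLT2F copy on chromosome 5 near MIR548F3, from 18.2 and 16.6 to 6.30 and 5.54 CPM, while WT cells gave 21.9 and 21.6 without and 25.4 and 27 CPM with IFN.

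The largest falls with IFN in USP18-/- cells ended below 0.6 CPM. The MLT2B4 copy near SDHAP1 went from 1.75 and 2.69 to 0.266 and 0.563 CPM (log2 fold change -2.39, SE 0.48, edgeR adjusted p = 3.0e-05), with WT libraries between 3.09 and 4.55 CPM. An MLT1H copy near BTBD3 and an LTR16C copy near LAMP5-AS1, in an intron of PAK5, fell by 2.68 and 2.39 on the log2 scale from at most 1.35 CPM. The first lost its call without replicate 1 of IFN treated USP18-/- cells (-1.71, adjusted p = 0.11), and the second without replicate 2 of either USP18-/- group (-2.04 and -1.87, adjusted p = 0.077 and 0.083) and with DESeq2 (adjusted p = 0.051). The MLT1F1 copy near REXO1L2P held the strongest untreated WT signal of all members, 127 and 122 CPM, and fell in USP18-/- cells from 50.3 and 48.6 to 19.5 and 18.1 CPM with IFN, but 33.9% of its 100-base stretches are repeated elsewhere.

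The remaining members with the highest WT signal changed little with IFN in WT cells. The THE1B copy near DNAJC5B gave 102 and 106 CPM untreated and 99.4 and 106 CPM with IFN in WT cells, and 125 and 128 against 89.6 and 106 CPM in USP18-/- cells. The MLT1A copy near BASP1, a membrane-associated signaling protein, stayed between 62.4 and 99.4 CPM in the 8 libraries. The MLT1C copy 2.84 kb from PPP1R27 stood at 98.4 and 99.2 CPM in untreated WT cells and went from 81.3 and 79.6 to 34 and 37.0 CPM with IFN in USP18-/- cells (log2 fold change -1.18, SE 0.09, edgeR adjusted p = 4.6e-19).

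**Figure D4:**
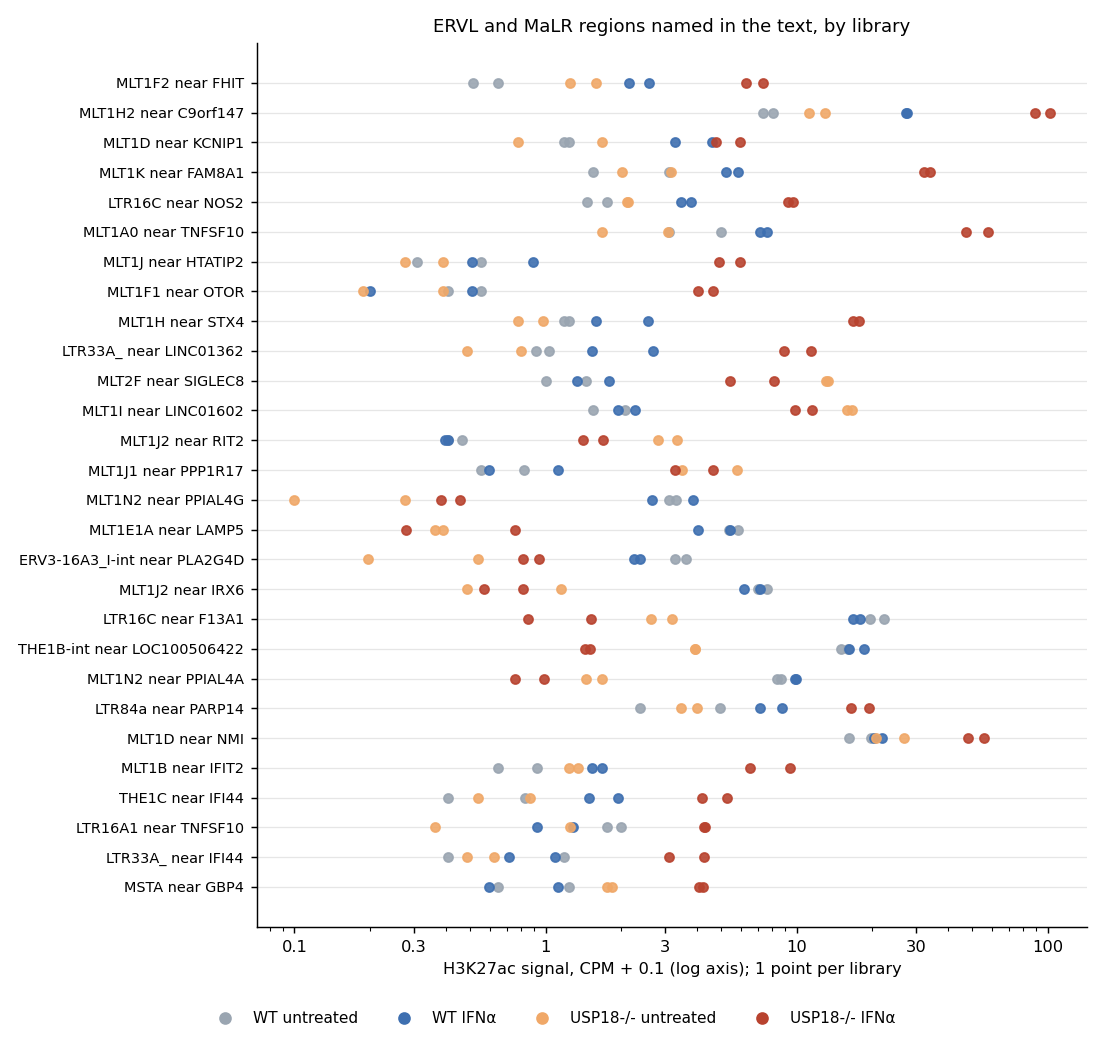
H3K27ac signal at 28 of the named members in each of the 8 libraries, as CPM plus 0.1 on a log axis, with 1 point per library. IFN treated USP18-/- libraries lie to the right of all others at members such as the MLT1A0 copy near TNFSF10 (47.0 and 57.7 CPM), and untreated USP18-/- libraries lie furthest right at the MLT2F copy near SIGLEC8 (13.0 and 13.3 CPM).

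IFN in USP18-/- cells raised 31.1% of the members with an ISRE core and 4.15% of those without. The core was in the central 200 bases of 344 tested members (4.57%), against 5.62% of all tested regions. Of these 344, 107 were higher with IFN in USP18-/- cells and 3 were lower, with a median log2 fold change of 0.57, against -0.09 for members without it. Among all tested regions with the core, 37.0% were higher. Seen from the calls, 107 of the 405 higher members (26.4%) and 3 of the 379 lower members (0.792%) held the core. Over all tested regions, 29.1% of those higher and 1.71% of those lower held it. In WT cells the members' median was 0.13 with and -0.05 without it. There 4 of the 10 higher members held it, beside 45.5% of all higher regions. In untreated USP18-/- against WT cells 43 of the members with the core were lower, 12.5% beside 12.1% of those without it, and 10 were higher, with medians of -0.32 and -0.16. All 6930 tested regions with the core gave 846 lower and 323 higher in that comparison.

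The share of holders that rose was counted in each class. Of 6 tested MLT2 copies with the core, 5 were higher with IFN in USP18-/- cells. Of internal parts 19 of 51, of other ERVL LTRs 26 of 69, and of MLT1 copies 46 of 161 were higher. Of MST copies 8 of 43 and of THE1 copies 3 of 14 were higher. Among the 42 internal parts that were higher, 45.2% held the core, beside 29.1% of all higher regions.

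**Figure D5:**
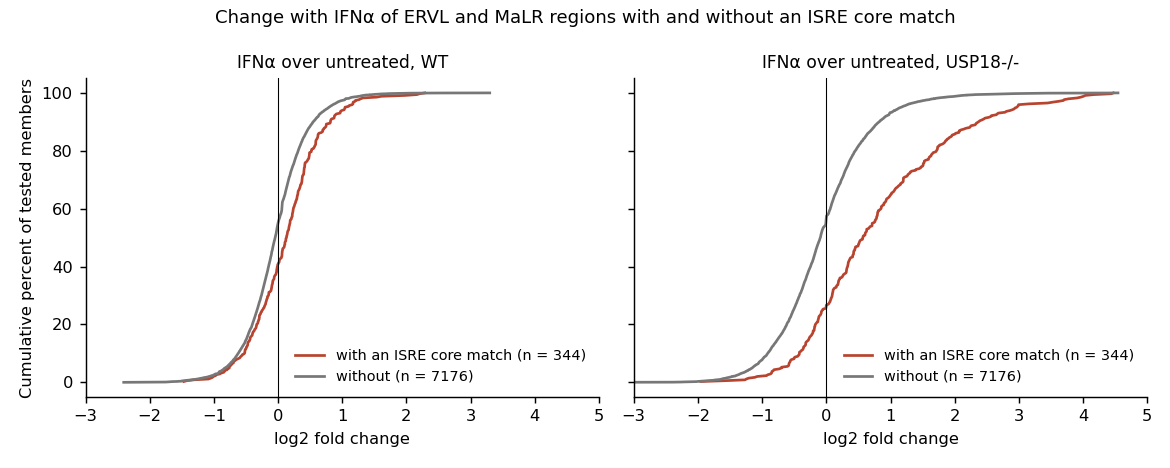
Cumulative percent of tested members by their log2 fold change with IFNα, in WT (left) and USP18-/- cells (right), for 344 members with an ISRE core match and 7176 without. In USP18-/- cells the curve with the core lies to the right, with a median of 0.57 against -0.09, and in WT cells the medians are 0.13 and -0.05.

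Among the printed sequences, the LTR67B copy near CHSY1, a chondroitin synthase, gave 65.7 and 61.7 CPM in untreated and 82.9 and 78.9 CPM in IFN treated WT cells. In USP18-/- cells it went from 51.8 and 55.3 to 185 and 178 CPM (log2 fold change 1.76, SE 0.09, edgeR adjusted p = 5.9e-32). The MLT1H copy near CCR1, a chemokine receptor of monocytes, went from 5.76 and 5.29 to 43.8 and 38.9 CPM, against 7.44 and 8.08 to 13.7 and 11.8 CPM in WT cells. Its IFN effect was larger in USP18-/- cells by 2.19 on the log2 scale (SE 0.24, edgeR adjusted p = 8.2e-12). The MLT1J-int part on chromosome 5 was called in both genotypes, with 5.17 and 5.35 to 10.9 and 12.8 CPM in WT cells and 2.18 and 1.15 to 22.5 and 21.6 CPM in USP18-/- cells. The MSTA copy near LOC101927237 went from 1.75 and 1.06 to 6.39 and 7.23 CPM and the MLT2F copy near EFHB from 8.03 and 7.60 to 16.7 and 18.2 CPM in USP18-/- cells.

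THE1 copies that rose with IFN in USP18-/- cells mostly held AP-1 letters. TGANTCA was in 323 of 587 tested THE1 copies (55.0%), against 19.3% of tested members and 13.2% of all tested regions. Of the 34 THE1 copies higher with IFN in USP18-/- cells, 28 held it (82.4%) and 3 held the ISRE core. The classic form, with a C or G in the middle, was in 16 of the 34 (47.1%), against 31.3% of tested THE1 copies. The form with an A or T was in 12 (35.3%), against 24.5%. Among all members, 23.2% of those higher and 11.9% of those lower with IFN in USP18-/- cells held TGANTCA. Over all regions these shares were 17.6% and 8.41%, so the direction was not particular to THE1. THE1 copies with the AP-1 letters gave 28 higher and 8 lower with a median of 0.14, and those without gave 6 and 10 with a median of -0.06. The THE1B copy near PRR16 was called in both genotypes, going from 2.38 and 2.72 to 4.46 and 6.67 CPM in WT cells (log2 fold change 1.11, SE 0.27, edgeR adjusted p = 0.015) and from 3.05 and 2.12 to 11.7 and 11.1 CPM in USP18-/- cells. The THE1A copy near MAD1L1, a spindle checkpoint protein, went from 1.31 and 0.577 to 4.88 and 3.19 CPM in USP18-/- cells, with WT libraries at 0.410 to 0.826 CPM. The THE1D copy near MTRNR2L5 went from 2.62 and 2.02 to 10.6 and 10.7 CPM, while WT libraries gave 4.06 to 4.75 CPM.

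The IFN effect was called different between the genotypes, larger in USP18-/- cells at 235 (3.12%) and smaller at 207 (2.75%), beside 4.66% and 2.51% of all tested regions. Under the sum of counts the counts were 184 and 312, so that 37.1% of called members lay on the higher side in place of 53.2%. THE1 gave 17 and 8 of 587, MLT1 108 and 81 of 3278, MLT2 5 and 10 of 190, and internal parts 27 and 35 of 841. Under the sum of counts MLT1 turned to 89 and 127. The largest difference was at the MLT1F1 copy near OTOR, at 5.04 on the log2 scale (SE 1.06, edgeR adjusted p = 0.00021). WT libraries gave at most 0.454 CPM there, and USP18-/- libraries 0.0873 and 0.289 untreated and 4.53 and 3.94 CPM with IFN. Another large difference was at an MLT1J copy near KIF21A, a kinesin, at 4.14 on the log2 scale. The last gave 1.14 and 0.908 CPM untreated and 0.793 and 0.615 CPM with IFN in WT cells, against 0.785 and 0.385 and then 7.54 and 7.32 CPM in USP18-/- cells (SE 0.64, edgeR adjusted p = 4.5e-07). On the lower side stood an LTR33 copy in an intron of ACTG2, smooth muscle actin, at -2.51, with 0.723 and 0.635 CPM untreated and 0.892 and 2.15 CPM with IFN in WT cells and 1.75 and 2.31 and then 0.710 and 0.845 CPM in USP18-/- cells (SE 0.68, edgeR adjusted p = 0.0053). That call was lost with DESeq2 (adjusted p = 0.10) and without replicate 2 of IFN treated WT cells (-1.76, adjusted p = 0.21).

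Of the 9985 members, 49 had 1 of 116 listed interferon genes as nearest gene, beside 725 of all 151654 regions. The 49 members lay nearest to 32 of these genes, and 40 of the 49 were tested. With IFN in USP18-/- cells 10 were higher (25%), near GBP4, GBP5, IFI44, IFIT2, NMI, PARP14 and TNFSF10, and 1 was lower, near IFI27. Their median was 0.66, and of all 642 tested regions near listed genes 41.7% were higher, with a median of 0.79. In WT cells 1 of the 40 members was higher (2.5%), near PARP14, beside 14.3% of the 642 regions.

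The LTR84a copy 1.52 kb from PARP14, an ADP-ribosyltransferase of the interferon response, gave 4.86 and 2.27 CPM in untreated and 8.62 and 7.08 CPM in IFN treated WT cells and 3.93 and 3.37 against 16.4 and 19.2 CPM in USP18-/- cells (log2 fold changes 1.17 and 2.28, SE 0.24 and 0.21, edgeR adjusted p = 0.0016 and 2.1e-16). The MLT1D copy in intron 1 of NMI, an interferon-induced gene, went from 20.6 and 26.7 to 47.8 and 55.4 CPM in USP18-/- cells, a log2 fold change of 1.13. That call was lost without replicate 1 of untreated USP18-/- cells, at 0.93, and under scaling by the sum of counts, at 0.999, just under the fold threshold. The MLT1B copy near IFIT2, which binds viral RNA, went from 1.13 and 1.25 to 6.39 and 9.29 CPM. The THE1C copy 1335 bp from the start of IFI44, an antiviral interferon-induced gene, went from 0.436 and 0.770 to 4.08 and 5.16 CPM, and an LTR33A_ copy 28.7 kb from it from 0.524 and 0.385 to 4.17 and 3.0 CPM. The MSTA copy near GBP4, a guanylate-binding protein, went from 1.66 and 1.73 to 3.99 and 4.13 CPM (log2 fold change 1.26, SE 0.32, edgeR adjusted p = 0.0015), with an adjusted p of 0.089 in DESeq2.

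Near 47 NF-kB and inflammatory genes, 19 members were tested. In untreated USP18-/- cells 1 was higher, near IL1A, and 4 were lower, near CXCL8, PTGS2 and TNFAIP8, and with IFN in USP18-/- cells 3 were higher, near CD40 and IRAK2, and 1 lower, near CXCL8. Of all 348 tested regions near these genes, 14.9% were higher and 12.6% lower in untreated USP18-/- cells, and 14.4% and 3.45% with IFN in USP18-/- cells. Near 50 myeloid genes, 17 members were tested. In untreated USP18-/- cells 2 were higher, near FPR3, and 4 lower, near CCR1, CD36, FCGR1A and TLR2. With IFN in USP18-/- cells 2 were higher, near CCR1 and CSF2RB, and 2 lower, near CX3CR1 and CYBB. The 472 tested regions near these genes gave 13.1% higher and 9.75% lower in untreated USP18-/- cells, and 11.9% and 6.78% with IFN in USP18-/- cells.

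Some promoters near called members moved the same way. Of members higher with IFN in USP18-/- cells, 162 lay within 50000 bp of the TSS of a nearest gene with a tested promoter, and at 35 of these (21.6%) the promoter was higher too, against 6.40% of 2861 tested members. Of 136 such lower members, 10 had a lower promoter (7.35%, against 2.41%). In untreated USP18-/- cells 24 of 126 higher members had a higher promoter (19%, against 8.28%), and 57 of 296 lower members a lower promoter (19.3%, against 5.49%). Members and promoters of a neighborhood are not independent, and these shares carry no test.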

How the data were processed

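Per the study's methods, the authors aligned the H3K27ac ChIP-seq reads to hg38 by Bowtie2 and used HOMER to sum raw tags over 1000 bp around each merged ATAC-seq peak. Tool versions were not given in the sources used here. The values, deposited as fractional tags without normalization, were taken as estimated counts. Whole numbers made up 52.2% of them, and 0 value columns were left unmapped. The input libraries and the ATAC-seq data were not used.

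Fractions were rounded up to whole counts. Regions were filtered, TMM scaled and fitted with 1 mean per group over all 8 libraries with edgeR 4.0.16 (limma 3.58.1, R 4.3.3), with quasi-likelihood tests on 5 contrasts. The biological coefficient of variation common to all regions was 0.0737. The steps were tested on simulated counts. Motifs were matched exactly on both strands of the central 200 bases with Python 3.11.15, and repeated sequence was counted in 100-base stretches. Alternatives were DESeq2 1.42.0, other scalings, filters and thresholds, a replicate block, and fits without each library in turn. Corrections by 10 Mb stretch and the removal of repeated members were added after seeing the data. As groups held 2 libraries each, the spread was estimated with information shared between regions.

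Members, lists and named regions were chosen with earlier results of these data known. The named regions are called members with a mean of at least 1 CPM whose groups do not overlap: those with the largest changes per contrast, the smallest adjusted p per class and up to 8 near interferon genes. The 5 with most untreated WT signal were added whether called or not. Results for some named regions and sequences are not reported here.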

Additional observations from a re-analysis of the deposited data

Results flagged for a closer look

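The effect of IFNα was tested for a difference between USP18-/- and WT cells in the same edgeR fit, and 235 members had a larger and 207 a smaller log2 fold change with IFN in USP18-/- cells. Large positive differences were 5.04 (SE 1.06) at the MLT1F1 copy near OTOR and 4.14 (SE 0.64) at the MLT1J copy near KIF21A. At both, the 2 IFN treated USP18-/- libraries lay above the other 6, and at the OTOR copy WT libraries gave at most 0.454 CPM. The largest negative differences were -2.51 at the LTR33 copy near ACTG2 and -2.35 at the MLT2B4 copy near SDHAP1.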

How the results depend on the processing

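Of the counts of called members, 73 of 80 values from leaving out 1 library and 104 of 118 under the other alternatives stayed within 1.5 times the reported count, and no named region changed sign. Without a fold threshold, IFN in WT cells gave 23 higher and 13 lower members, untreated USP18-/- cells 640 higher, IFN in USP18-/- cells 744 lower and the genotype difference 336 lower. Scaling by the sum of counts gave 373 higher with IFN in USP18-/- against WT cells and 312 lower for the genotype difference. DESeq2 gave 4 higher and 0 lower for IFN in WT cells (edgeR: 619 members at an unadjusted p under 0.05), 574 lower in untreated USP18-/- cells, 267 higher with IFN in USP18-/- cells, and 116 higher and 118 lower for the genotype difference. A minimum of 30 counts gave 230 higher in untreated USP18-/- cells. The cause of these shifts was not tested. Leaving out 1 library gave 5 to 13 higher and 0 to 4 lower for IFN in WT cells, 314 to 360 and 773 to 918 for untreated genotypes, 470 to 571 and 1007 to 1232 with IFN, 317 to 403 and 338 to 379 for IFN in USP18-/- cells, and 173 to 213 and 174 to 218 for the genotype difference. The status of named regions, called or not called, stayed the same in 406 of 432 and 451 of 462 such comparisons. Medians over members and classes moved by more than the replicate spread in 120 of 280 and 151 of 308 comparisons.

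With the replicate block, IFN in USP18-/- cells gave 399 higher and 382 lower members, and IFN in WT cells 11 and 4. Deviations of same-numbered libraries correlated at -0.0098 to 0.025 over members, so the numbers did not pair the libraries. Counts near 10 per library limit the fold changes of weak members. Members with repeated sequence made up 1.45%, and without them 348 were higher and 900 lower in untreated USP18-/- cells, an alternative chosen after seeing the data.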
